A study of Homo sapiens with 20 samples.

Results

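Kruppel-like factors (KLF) are transcription factors that bind DNA with C2H2 zinc fingers at GC-rich and CACCC-type sites. The 10 genes described here are KLF2, KLF3, KLF4, KLF6, KLF7, KLF9, KLF10, KLF11, KLF13 and KLF16, out of 78932 gene identifiers in the deposited table of counts. All 10 were among the 20957 genes that passed a filter on low counts. The genes were chosen with their measured values in these libraries in view, so their levels and changes are given as descriptions and no p-value is given for them.

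Poly(A) RNA was sequenced from OPM2, a human multiple myeloma cell line, treated with inhibitors of histone deacetylases (HDACs), the enzymes that remove acetyl groups from histones and other proteins. Panobinostat and romidepsin were each given at 10 nM and ricolinostat at 100 nM, cells being harvested after 2, 5 and 20 h, and the comparison was with cells given the vehicle DMSO. Each of these 10 groups had 2 libraries, which the study describes as independent biological replicates, and a single cell line stands for the disease. The sample titles and the treatment protocol give 100 nM for ricolinostat, while 1 sample field gives 10 nM, and no harvest time is given for the DMSO cells. Panobinostat and ricolinostat are hydroxamic acids, the first acting on many HDACs and the second preferentially on HDAC6, and romidepsin is a cyclic depsipeptide preferring class I HDACs.

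The family divides by the proteins its members bind. KLF2, KLF4, KLF6 and KLF7 are best known as activators that bind histone acetyltransferases, although KLF2 and KLF4 also repress genes. KLF3 binds the corepressor CtBP, and KLF9, KLF10, KLF11, KLF13 and KLF16 bind SIN3A, a scaffold that carries HDAC1 and HDAC2. Several members are induced by signals: KLF2 and KLF4 by the kinase ERK5 through MEF2 factors, KLF9 by glucocorticoids, and KLF10 and KLF11 by TGF-beta. In myeloma, KLF2 is described as part of a loop with the demethylase KDM3A and the plasma cell factor IRF4 that maintains the integrin ITGB7. KLF9 is described there as an activator of a gene written as NOXA1.

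The start-site sequences of 5 members are shown because these genes had the largest rises (KLF2, KLF4, KLF9) or fell in all 9 contrasts with DMSO (KLF6, KLF13). They are RefSeq windows of build GRCh38.p14 that run from 250 bases before to 50 bases after the annotated start, written 5′ to 3′ on the strand of the gene. Such windows were found for 8 of the 10 members. Capitals mark matches on either strand to any of 7 short motifs. These were the GC box GGGCGG, the CACCC box, searched as CCACCC, the CCAAT box, the TATA box, searched as TATAAA, the cyclic AMP response element TGACGTCA, the E-box, searched as CACGTG, and the MEF2-type pattern CTANNNNTAG. The KLF2 window is chr19:16324576-16324875 on the plus strand, KLF4 chr9:107489720-107490019 on the minus strand, KLF9 chr9:70414608-70414907 on the minus strand, KLF6 chr10:3785160-3785459 on the minus strand and KLF13 chr15:31326585-31326884 on the plus strand.
KLF2: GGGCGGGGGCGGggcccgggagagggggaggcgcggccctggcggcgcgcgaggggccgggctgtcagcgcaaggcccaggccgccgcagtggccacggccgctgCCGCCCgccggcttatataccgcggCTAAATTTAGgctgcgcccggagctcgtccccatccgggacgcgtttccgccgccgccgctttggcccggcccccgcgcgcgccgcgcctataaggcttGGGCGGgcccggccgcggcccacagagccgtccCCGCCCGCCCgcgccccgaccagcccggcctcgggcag
KLF4: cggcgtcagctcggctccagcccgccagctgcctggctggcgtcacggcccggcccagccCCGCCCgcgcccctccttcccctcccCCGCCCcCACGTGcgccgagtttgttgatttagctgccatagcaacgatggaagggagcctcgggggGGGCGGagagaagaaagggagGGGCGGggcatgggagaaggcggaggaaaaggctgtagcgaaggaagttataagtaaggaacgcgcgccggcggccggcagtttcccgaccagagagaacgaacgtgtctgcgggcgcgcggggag
KLF9: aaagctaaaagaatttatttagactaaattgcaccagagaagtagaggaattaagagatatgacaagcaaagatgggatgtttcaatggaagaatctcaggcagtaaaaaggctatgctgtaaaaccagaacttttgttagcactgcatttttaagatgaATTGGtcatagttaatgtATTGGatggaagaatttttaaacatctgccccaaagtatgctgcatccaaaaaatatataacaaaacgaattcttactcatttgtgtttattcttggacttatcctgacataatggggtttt
KLF6: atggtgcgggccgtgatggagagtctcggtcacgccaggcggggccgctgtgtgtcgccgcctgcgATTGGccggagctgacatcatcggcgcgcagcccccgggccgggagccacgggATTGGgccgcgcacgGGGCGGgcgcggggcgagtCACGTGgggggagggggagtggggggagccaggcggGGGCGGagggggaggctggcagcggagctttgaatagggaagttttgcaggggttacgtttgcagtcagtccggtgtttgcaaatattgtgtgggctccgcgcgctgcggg
KLF13: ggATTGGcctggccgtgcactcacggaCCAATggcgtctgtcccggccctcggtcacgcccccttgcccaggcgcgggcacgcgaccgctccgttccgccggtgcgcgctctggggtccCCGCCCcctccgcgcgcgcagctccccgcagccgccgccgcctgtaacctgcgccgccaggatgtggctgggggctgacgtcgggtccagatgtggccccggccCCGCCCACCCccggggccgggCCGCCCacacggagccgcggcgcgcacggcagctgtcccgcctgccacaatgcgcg

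The windows differed in base composition. The KLF2 window was 80.7% G and C and held 6 GC boxes, of which those at positions 12 and 16 after the start overlap, and 1 MEF2-type site at position -120. The KLF4 window held 4 GC boxes and 1 E-box, and it lies inside the GENCODE gene, so the RefSeq and GENCODE starts of KLF4 differ. The KLF9 window was only 32.7% G and C and held 2 CCAAT matches and no GC box. The KLF6 window held 2 GC boxes, 2 CCAAT matches and 1 E-box. The KLF13 window held 3 GC boxes, 2 CCAAT matches and 1 CACCC match that overlaps a GC box. Of all 35116 windows of the same length, 45% held a GC box, 34.3% a CACCC match, 34.6% a CCAAT match, 11.5% a TATA match, 1.85% the cyclic AMP response element, 7.26% the E-box and 2.73% the MEF2-type pattern. A match describes the letters only.

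Library totals ran from 17264640 to 29088868 counts. Levels are given in CPM (the count of a gene scaled to a common library size, with TMM factors), and changes as log2 fold changes ± SE from one edgeR quasi-likelihood fit over all 20 libraries. A change was called at a Benjamini-Hochberg adjusted p under 0.05, and "rose" and "fell" are used only of called changes. All 9 contrasts with vehicle share the same 2 DMSO libraries. When libraries were scaled by their totals alone, all genes had a median log2 change of 0.56 at 20 h of panobinostat and 0.46 at 20 h of romidepsin, against 0.25 and 0.22 with TMM. The share of calls that were higher then became 65.9% at 20 h of panobinostat, 65.6% and 71.3% at 2 and 5 h of romidepsin and 66.2% at 20 h of ricolinostat, against 55.8%, 43.4%, 44.1% and 47.3% with TMM. Changes are therefore relative to the TMM scale. Myeloma cell markers were present in DMSO cells, with 1767 and 1736 CPM of IRF4 and 1111 and 1126 CPM of the plasma cell marker SDC1, while CD3D, CD3E, EPCAM, COL1A2 and VWF, markers of other cell types, were at 0. All 8 myeloma markers tested fell after 20 h of panobinostat, and 7 of 8 fell after 20 h of romidepsin, with median log2 changes of -3.72 and -2.65. CD38, the other marker, rose by 0.61 at 20 h of romidepsin. At 2 and 5 h, 7 of 8 fell with panobinostat and with romidepsin. With ricolinostat 7, 8 and 6 fell at 2, 5 and 20 h, with medians of -0.47, -0.42 and -0.25, and NSD2 rose by 0.16 at 20 h. At 20 h of panobinostat and romidepsin 32.3% and 29.9% of all genes were lower, and the other shares follow in the next paragraph. Of 12 markers of other cell types, 5 were tested, and at 20 h of both panobinostat and romidepsin 3 of these rose and 2 fell. Those that rose, CD14, CSF1R and VWF, passed the count filter only through treated groups where they were higher, so their rises were built in. The summed level of the 12 was 8.49 to 8.69 CPM at 20 h of panobinostat and 3.55 to 4.41 CPM at 20 h of romidepsin, against 5.29 to 6.31 CPM in DMSO cells. CSF1R, a macrophage receptor, had 4.93 and 5.38 CPM at 20 h of panobinostat and 1.77 and 1.15 CPM at 20 h of romidepsin, against 0.0847 and 0 CPM in DMSO cells. CD14, a monocyte marker, had 1.76 and 1.29 CPM at 20 h of panobinostat and 0.591 and 0.742 CPM at 20 h of romidepsin, against 0.0423 and 0.261 CPM in DMSO cells. VWF, an endothelial marker, had 10 and 14 counts at 20 h of panobinostat and 6 and 4 counts at 20 h of romidepsin, against 0 and 0 counts in DMSO cells. PECAM1, another endothelial marker, had 0.626 and 0.631 CPM at 20 h of panobinostat and 0.718 and 1.48 CPM at 20 h of romidepsin, against 5.21 and 4.55 CPM in DMSO cells, and HBB, an erythroid gene, fell by 1.71 and 2.24 on the log2 scale at 20 h of the same inhibitors. PECAM1 also fell in the other panobinostat and all ricolinostat contrasts, CD14 rose at 2 h of panobinostat, and CD14 and CSF1R rose at 5 h of panobinostat and of ricolinostat. At 5 h of ricolinostat 1 of these rises was called without either DMSO library or the ricolinostat replicate 1. Without DMSO replicate 1, 1 of the 3 rises remained called at 20 h of romidepsin, and the falls of the list dropped to 1 at 20 h of both inhibitors without DMSO replicate 1 or the treated replicate 1. The part of either marker list in the changes of the Kruppel-like factors was not tested, and in bulk RNA fewer cells of a kind and less RNA per cell cannot be told apart.

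Against DMSO, panobinostat raised 5 members and lowered 4 at 2 h, raised 3 and lowered 3 at 5 h, and raised 6 and lowered 2 at 20 h. Of all genes tested, 20.8% were higher and 18.1% lower at 2 h, 30.7% and 25.9% at 5 h, and 40.8% and 32.3% at 20 h. Romidepsin raised 0 members and lowered 7 at 2 h, raised 1 and lowered 5 at 5 h, and raised 7 and lowered 3 at 20 h. The shares of all genes for romidepsin were 3.55% higher and 4.62% lower at 2 h, 13% and 16.5% at 5 h, and 38.6% and 29.9% at 20 h. Ricolinostat raised 4 and lowered 5 members at 2 h, raised 2 and lowered 4 at 5 h, and raised 3 and lowered 6 at 20 h, against 16.9% and 14.5%, 18.8% and 15.3%, and 14.7% and 16.4% of all genes. Without DMSO replicate 2, 0 of the 4 rises at 2 h of ricolinostat, 0 of the 2 rises at 5 h of ricolinostat and 0 of the 1 rise at 5 h of romidepsin were called, and the total at 2 h of ricolinostat was 5. The rises at 2 h of ricolinostat numbered 2 without DMSO replicate 1 and 1 without either treated library, that at 5 h of ricolinostat 1 without its replicate 1, and that at 5 h of romidepsin 0 without its replicate 2. The rises at 2 h of panobinostat numbered 3 without that group's replicate 2. The members were chosen on these contrasts, so nothing is read from their counts against these shares. The median log2 change of the 10 members was 0.16, -0.08 and 0.32 for panobinostat at 2, 5 and 20 h, -0.60, -0.26 and 0.59 for romidepsin, and -0.50, -0.28 and -0.18 for ricolinostat, while that of all genes tested lay between 0 and 0.25.

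**Figure D1:**
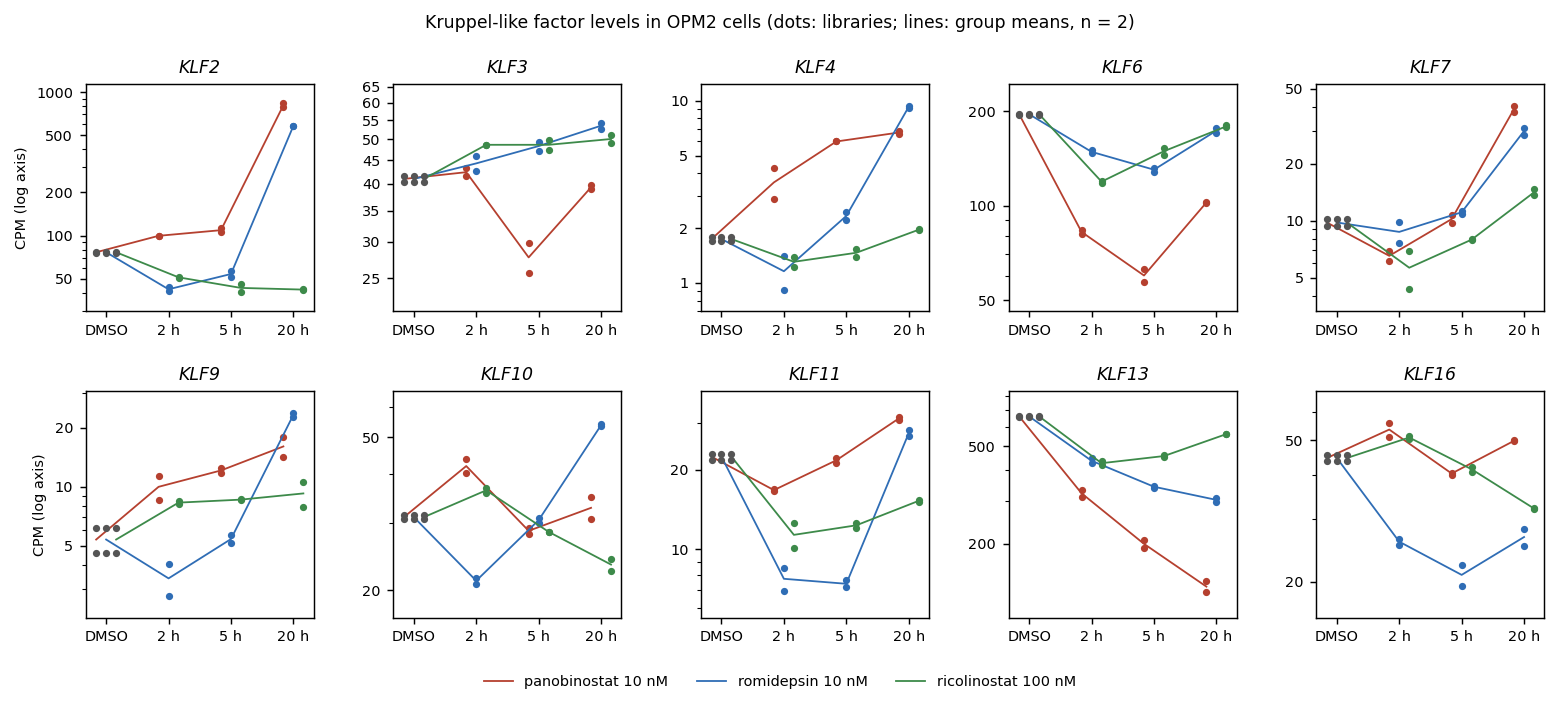
Level of each of the 10 Kruppel-like factors in CPM (log axis) in DMSO cells and after 2, 5 and 20 h of each inhibitor; dots are libraries and lines join group means (n = 2), with the same 2 DMSO libraries drawn at the start of each line. KLF2 reached 784 and 836 CPM after 20 h of panobinostat, and KLF13 fell at every time in all 3 inhibitors.

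KLF2, a lymphocyte quiescence factor of the activator group (ENSG00000127528, chr19:16324817-16327874, plus strand), had the largest change of any member. Its level was 77.3 and 76.1 CPM in DMSO cells, 100.1 and 99.6 CPM at 2 h of panobinostat, 106 and 112 CPM at 5 h, and 784 and 836 CPM at 20 h. With romidepsin it was 41.1 and 43.6 CPM at 2 h, 56.9 and 51.3 CPM at 5 h, and 582 and 581 CPM at 20 h, so romidepsin first lowered the gene and then raised it. With ricolinostat it was 50.9 and 51.8 CPM at 2 h, 40.4 and 46.2 CPM at 5 h, and 42.6 and 41.7 CPM at 20 h, below both DMSO libraries throughout. The log2 changes were 0.38 ± 0.05, 0.51 ± 0.05 and 3.40 ± 0.05 for panobinostat, -0.86 ± 0.06, -0.50 ± 0.05 and 2.92 ± 0.05 for romidepsin, and -0.58 ± 0.05, -0.83 ± 0.05 and -0.86 ± 0.06 for ricolinostat. In order of level, panobinostat at 20 h came first, then romidepsin at 20 h, panobinostat at 5 h and 2 h, and DMSO. Below these stood romidepsin at 5 h and ricolinostat at 2 h, whose libraries overlapped, and then romidepsin at 2 h and ricolinostat at 5 and 20 h, which also overlapped.

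KLF4, a regulator of differentiation and one of the factors used to reprogram cells to pluripotency (ENSG00000136826, chr9:107484852-107490482, minus strand), had the lowest level per length of exon in DMSO cells, 0.476 CPM per kb. Its level was 1.69 and 1.79 CPM in DMSO cells, 2.88 and 4.26 CPM at 2 h of panobinostat, 5.98 CPM in both libraries at 5 h, and 6.81 and 6.58 CPM at 20 h. With romidepsin it was 1.40 and 0.916 CPM at 2 h, 2.21 and 2.46 CPM at 5 h, and 9.41 and 9.12 CPM at 20 h. With ricolinostat it was 1.22 and 1.39 CPM at 2 h, 1.38 and 1.54 CPM at 5 h, and 1.97 and 1.95 CPM at 20 h, and none of its 3 changes was called. Panobinostat raised KLF4 by 1.04 ± 0.25, 1.78 ± 0.24 and 1.94 ± 0.24 on the log2 scale at 2, 5 and 20 h. Romidepsin raised it by 2.41 ± 0.23 at 20 h, and its changes of -0.59 at 2 h and 0.42 at 5 h were not called. The call at 2 h of panobinostat was lost, with a log2 change of 0.65, without that group's replicate 2.

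KLF6, a broadly expressed factor induced early after stimulation (ENSG00000067082, chr10:3775996-3785281, minus strand), was high in DMSO cells and fell in every contrast. It had 196 and 195 CPM in DMSO cells, 83.5 and 81.5 CPM at 2 h of panobinostat, 62.7 and 57.3 CPM at 5 h, and 102 and 103 CPM at 20 h. With romidepsin it had 147 and 150 CPM at 2 h, 132 and 128 CPM at 5 h, and 170 and 177 CPM at 20 h. With ricolinostat it had 118 and 120 CPM at 2 h, 153 and 145 CPM at 5 h, and 178 and 180 CPM at 20 h. Every treated library lay below both DMSO libraries, and the lowest level came at 5 h with panobinostat and romidepsin but at 2 h with ricolinostat. The log2 changes were -1.24, -1.71 and -0.93 for panobinostat, -0.40, -0.58 and -0.17 for romidepsin, and -0.71, -0.39 and -0.13 for ricolinostat, each ± 0.05. The fall at 20 h of ricolinostat was not called once any 1 of its 4 libraries was left out (-0.15 to -0.12), and that at 20 h of romidepsin became 0.06 when scaled by library totals alone. With a filter of 5 CPM neither fall was called (-0.07 for ricolinostat and -0.03 for romidepsin). That of ricolinostat was also not called without a filter or when scaled by library totals alone.

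KLF7, a factor known from the development of neurons (ENSG00000118263, chr2:207074137-207167267, minus strand), rose late. It had 10.2 and 9.32 CPM in DMSO cells, 6.13 and 6.90 CPM at 2 h of panobinostat, 9.68 and 10.7 CPM at 5 h, and 40.4 and 37.6 CPM at 20 h. With romidepsin it had 7.58 and 9.86 CPM at 2 h, 10.8 and 11.3 CPM at 5 h, and 28.5 and 31.1 CPM at 20 h. With ricolinostat it had 6.95 and 4.33 CPM at 2 h, 7.92 and 7.96 CPM at 5 h, and 13.6 and 14.7 CPM at 20 h. KLF7 rose at 20 h with all 3 inhibitors, by 2.00 ± 0.12 for panobinostat, 1.61 ± 0.12 for romidepsin and 0.53 ± 0.13 for ricolinostat on the log2 scale. At 2 h it fell by 0.58 ± 0.14 with panobinostat and by 0.80 ± 0.15 with ricolinostat.

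KLF3, a repressor that works through CtBP and restrains B cell subsets in mice (ENSG00000109787, chr4:38664196-38701042, plus strand), moved least among the members. It had 41.6 and 40.4 CPM in DMSO cells, and 41.6 and 43.3, 29.8 and 25.7, and 38.9 and 39.8 CPM at 2, 5 and 20 h of panobinostat. It had 46.0 and 42.6, 47.2 and 49.4, and 54.3 and 52.7 CPM at 2, 5 and 20 h of romidepsin. It had 48.6 and 48.7, 49.8 and 47.4, and 51.2 and 49.0 CPM at 2, 5 and 20 h of ricolinostat. The only called fall was that at 5 h of panobinostat, -0.57 ± 0.08 on the log2 scale, and the called rises were at most 0.38 ± 0.07, at 20 h of romidepsin. Among these rises, that at 5 h of romidepsin was lost without DMSO replicate 2 or the romidepsin replicate 2, that at 2 h of ricolinostat without DMSO replicate 2 or either treated library, and that at 5 h of ricolinostat without DMSO replicate 2 or its own replicate 1. The log2 change of -0.06 at 20 h of panobinostat, not called, became a called rise of 0.25 when scaled by library totals alone. KLF3 shares 266 exon bases with KLF3-AS1 on the opposite strand, and the strand setting used in counting is not given in the sources used here.

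KLF9, a SIN3-binding factor and direct glucocorticoid target (ENSG00000119138, chr9:70384597-70414624, minus strand), rose with panobinostat and ricolinostat at every time, but with romidepsin only at 20 h. It had 6.18 and 4.58 CPM in DMSO cells, 8.59 and 11.4 CPM at 2 h of panobinostat, 11.7 and 12.5 CPM at 5 h, and 14.2 and 17.9 CPM at 20 h. With romidepsin it had 4.03 and 2.79 CPM at 2 h, 5.68 and 5.15 CPM at 5 h, and 22.8 and 23.8 CPM at 20 h. With ricolinostat it had 8.44 and 8.18 CPM at 2 h, 8.69 and 8.52 CPM at 5 h, and 10.6 and 7.94 CPM at 20 h. The log2 changes were 0.91 ± 0.16, 1.18 ± 0.16 and 1.59 ± 0.15 for panobinostat, -0.65 ± 0.19, 0.02 (not called) and 2.12 ± 0.15 for romidepsin, and 0.63 ± 0.17, 0.68 ± 0.17 and 0.79 ± 0.16 for ricolinostat. The libraries of panobinostat at 2 h overlapped those of ricolinostat at 5 and 20 h, and those of ricolinostat at 20 h overlapped its own at 2 and 5 h. Those of romidepsin at 5 h overlapped DMSO. The calls at 2 and 5 h of ricolinostat were lost without DMSO replicate 2 (0.40 and 0.44), and the fall at 2 h of romidepsin was lost without DMSO replicate 1 (-0.45) or its own replicate 2 (-0.43).

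KLF10 and KLF11 form the TGF-beta inducible pair. With romidepsin both fell at 2 h and rose at 20 h, and at 20 h of ricolinostat both fell, while at 2 h of panobinostat and of ricolinostat KLF10 rose and KLF11 fell. KLF10 (ENSG00000155090, chr8:102648779-102655902, minus strand) had 31.4 and 30.6 CPM in DMSO cells, and 40.3 and 43.9, 29.1 and 28.0, and 30.6 and 34.9 CPM at 2, 5 and 20 h of panobinostat. It had 20.8 and 21.6, 30.9 and 30.0, and 53.9 and 53.5 CPM at 2, 5 and 20 h of romidepsin, a fall of 0.55 ± 0.08 on the log2 scale at 2 h and a rise of 0.79 ± 0.08 at 20 h. It had 37.0 and 35.8, 28.4 and 28.4, and 24.2 and 22.5 CPM at 2, 5 and 20 h of ricolinostat, with log2 changes of 0.23 ± 0.08 at 2 h and -0.41 ± 0.08 at 20 h. The small rise at 2 h of ricolinostat was lost when any 1 of its 4 libraries was left out. KLF10 rose by 0.44 ± 0.08 at 2 h of panobinostat, and its changes of -0.12 at 5 h and 0.09 at 20 h were not called, the second of them called at 0.39 when scaled by library totals alone.

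KLF11 (ENSG00000172059, chr2:10042849-10054836, plus strand) had 23.0 and 21.8 CPM in DMSO cells, and 16.6 and 16.9, 21.2 and 22.2, and 30.8 and 31.5 CPM at 2, 5 and 20 h of panobinostat. It had 8.55 and 6.95, 7.65 and 7.19, and 28.2 and 26.7 CPM at 2, 5 and 20 h of romidepsin. It had 12.6 and 10.1, 12.1 and 12.6, and 15.4 and 15.1 CPM at 2, 5 and 20 h of ricolinostat. Romidepsin lowered KLF11 by 1.53 ± 0.12 and 1.59 ± 0.12 on the log2 scale at 2 and 5 h, its largest falls. Ricolinostat gave -0.98, -0.86 and -0.55, each ± 0.11, at 2, 5 and 20 h, and panobinostat -0.42 ± 0.11 at 2 h, -0.04 at 5 h (not called) and 0.48 ± 0.10 at 20 h. The rise of 0.29 ± 0.10 at 20 h of romidepsin was lost without DMSO replicate 2 (0.21) or romidepsin replicate 1 (0.17). KLF11 shares 416 exon bases with an antisense gene, ENSG00000271787.

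KLF13, a SIN3-binding factor first described as a late-acting regulator of CCL5 in T cells (ENSG00000169926, chr15:31326855-31435665, plus strand), was the most abundant member in DMSO cells and fell in all 9 contrasts. It had 659 and 664 CPM in DMSO cells, 310 and 333 CPM at 2 h of panobinostat, 207 and 193 CPM at 5 h, and 127 and 141 CPM at 20 h. With romidepsin it had 425 and 447 CPM at 2 h, 344 and 339 CPM at 5 h, and 296 and 308 CPM at 20 h. With ricolinostat it had 418 and 435 CPM at 2 h, 451 and 461 CPM at 5 h, and 559 and 561 CPM at 20 h. The level went on falling over time with panobinostat and romidepsin, while with ricolinostat it was lowest at 2 h. The log2 changes were -1.04, -1.73 and -2.30 for panobinostat, -0.60, -0.95 and -1.13 for romidepsin, and -0.63, -0.54 and -0.24 for ricolinostat, each ± 0.04. In order of level, DMSO came first, followed by ricolinostat at 20 h and 5 h, romidepsin and ricolinostat at 2 h, whose libraries overlapped, romidepsin at 5 h, panobinostat at 2 h, romidepsin at 20 h, and panobinostat at 5 h and 20 h.

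KLF16, a SIN3-binding factor known as a regulator of dopamine receptor and metabolic genes (ENSG00000129911, chr19:1852399-1863568, minus strand), fell with romidepsin at all 3 times. It had 43.7 and 45.4 CPM in DMSO cells, and 25.5 and 26.4, 22.4 and 19.5, and 28.2 and 25.3 CPM at 2, 5 and 20 h of romidepsin. It had 51.1 and 56.0, 40.6 and 40.0, and 49.7 and 49.9 CPM at 2, 5 and 20 h of panobinostat, and 50.2 and 51.5, 42.2 and 40.7, and 32.1 and 32.2 CPM at 2, 5 and 20 h of ricolinostat. The romidepsin changes were -0.78, -1.09 and -0.74, each ± 0.08, on the log2 scale. Panobinostat gave 0.27 ± 0.07 at 2 h, lost without that group's replicate 2 (0.13), -0.15 at 5 h, not called, and 0.16 ± 0.07 at 20 h, lost when any 1 of its 4 libraries was left out. Ricolinostat gave -0.47 ± 0.08 at 20 h and 0.19 ± 0.07 at 2 h, the second lost when any 1 of its 4 libraries was left out. KLF16 shares 483 exon bases with an antisense gene, ENSG00000267125.

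**Figure D2:**
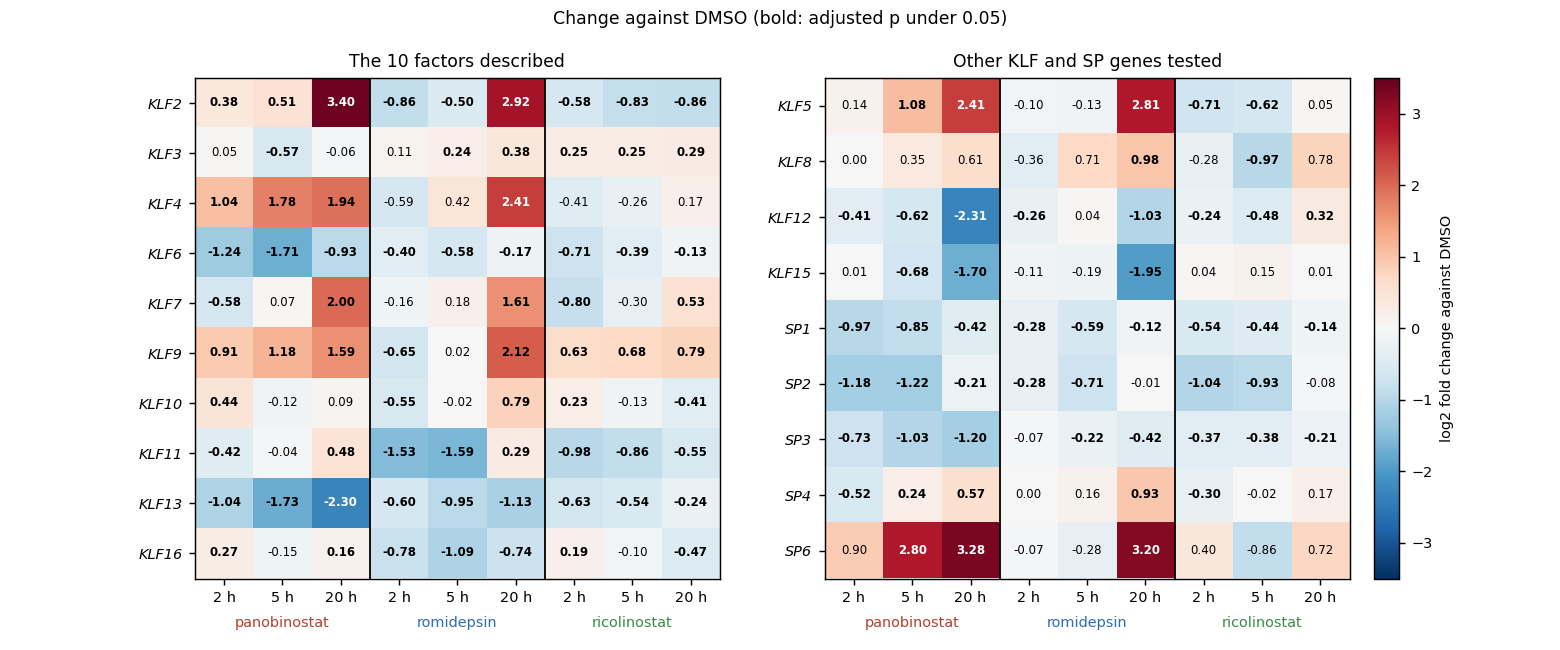
Heat maps of log2 fold changes against DMSO for the 10 members (left) and for the other KLF and SP genes tested that had more than 3 counts in DMSO cells (right), by inhibitor and time; red is higher and blue lower than DMSO, and bold values had an adjusted p under 0.05. KLF2 reads 3.40 at 20 h of panobinostat and 2.92 at 20 h of romidepsin, and the rows of KLF6 and KLF13 are blue throughout.

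Panobinostat and romidepsin were given at the same dose and times, and 9 of 10 members differed between them at 2 h, 8 at 5 h and 9 at 20 h, against 37.1%, 50.7% and 41.7% of all genes. At 2 h, romidepsin cells had less KLF2 (-1.24 ± 0.05 on the log2 scale, romidepsin over panobinostat), KLF4 (-1.64 ± 0.28), KLF9 (-1.57 ± 0.18), KLF10 (-0.99 ± 0.08), KLF11 (-1.11 ± 0.12) and KLF16 (-1.05 ± 0.08). They had more KLF6 (0.85 ± 0.05), KLF7 (0.42 ± 0.15) and KLF13 (0.44 ± 0.04). At 20 h the difference had changed sign for KLF4 (0.47 ± 0.20), KLF9 (0.53 ± 0.13) and KLF10 (0.71 ± 0.08), all then higher with romidepsin, and for KLF7 (-0.38 ± 0.11). KLF2 stayed lower with romidepsin, by 1.01 ± 0.05 at 5 h and 0.48 ± 0.04 at 20 h, and KLF16 by 0.94 ± 0.08 and 0.90 ± 0.08. KLF13 stayed higher with romidepsin, by 0.77 ± 0.04 at 5 h and 1.17 ± 0.04 at 20 h, and KLF6 by 1.12 ± 0.05 and 0.76 ± 0.05. KLF3 did not pass at 2 h (0.06 ± 0.07), KLF7 (0.11 ± 0.14) and KLF10 (0.09 ± 0.08) did not at 5 h, and KLF11 did not at 20 h (-0.19 ± 0.10), which does not show that the levels were equal. The genes were chosen on these libraries, so the differences are descriptions.

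**Figure D3:**
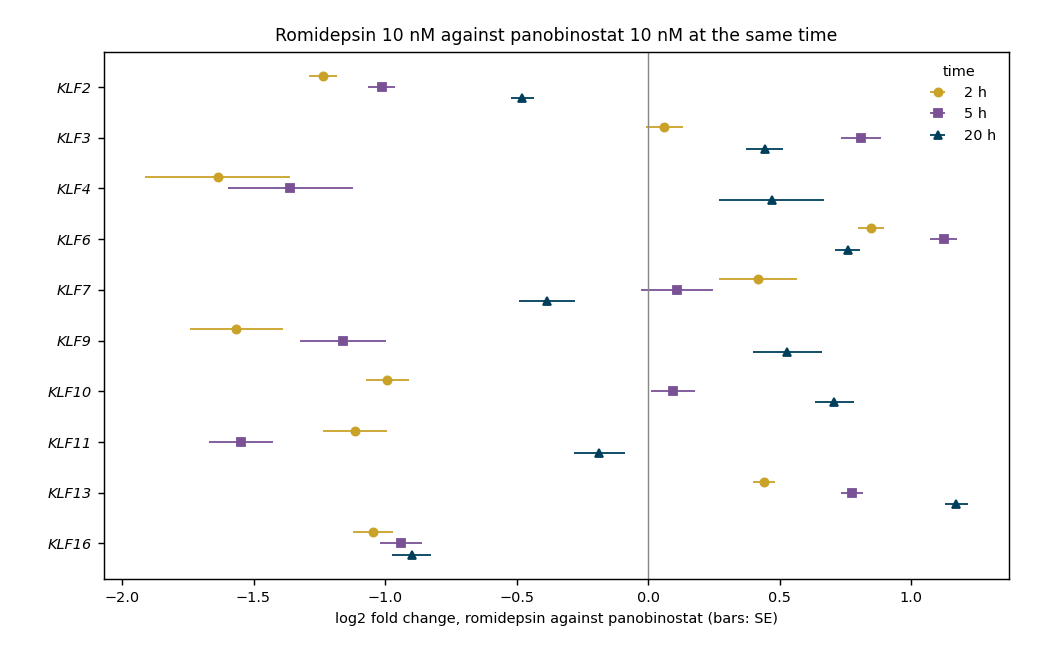
Log2 fold change of romidepsin over panobinostat, both at 10 nM, for each member at 2 h (circles), 5 h (squares) and 20 h (triangles); bars are SEs from the edgeR fit. KLF6 and KLF13 lie right of 0 at every time, and KLF4, KLF9 and KLF10 lie left of 0 at 2 h and right of it at 20 h.

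Ricolinostat was given at another dose, so its values stand beside those of the others without a comparison of potency. Between ricolinostat and panobinostat, 7, 8 and 10 members differed at 2, 5 and 20 h, against 19.2%, 47% and 68.8% of all genes. Between ricolinostat and romidepsin, 7, 7 and 8 members differed, against 29.6%, 33.8% and 62.2% of all genes. At 20 h, KLF2 had 42.6 and 41.7 CPM with ricolinostat, against 784 and 836 CPM with panobinostat and 582 and 581 CPM with romidepsin. At 2 h, KLF9, KLF10 and KLF16 were higher with ricolinostat than with romidepsin, by 1.29 ± 0.18, 0.78 ± 0.08 and 0.97 ± 0.08 on the log2 scale.

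Within each inhibitor, panobinostat moved 9 members between 2 and 5 h and 9 between 5 and 20 h, against 41.9% and 56.3% of all genes. Romidepsin moved 7 and 9 members in the same intervals, against 20.3% and 62.8% of all genes, and ricolinostat 5 and 6, against 15.3% and 37.9%. From 5 to 20 h, KLF2 rose by 2.89 ± 0.05 on the log2 scale with panobinostat and 3.42 ± 0.05 with romidepsin, and its change with ricolinostat, -0.03 ± 0.06, was not called. KLF9 rose by 0.41 ± 0.14 with panobinostat and 2.10 ± 0.15 with romidepsin over that interval, and KLF7 by 1.93 ± 0.12 and 1.43 ± 0.12. KLF4 changed little after 5 h with panobinostat (0.16 ± 0.21, not called) but rose by 1.99 ± 0.23 with romidepsin. The romidepsin count between 2 and 5 h dropped to 4 without that inhibitor's replicate 2 at 2 h, and the ricolinostat count between 2 and 5 h to 3 without its replicate 1 at 5 h.

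Levels of different genes were compared per kilobase (kb) of exon, since longer transcripts give more reads. In DMSO cells KLF13 led with 70.3 CPM per kb, 39.7% of the 177 CPM per kb summed over the 10 members, ahead of KLF2 with 38.0 (21.5%), KLF6 with 31.8 (18%) and KLF16 with 15.1. KLF10 had 7.74, KLF3 6.51 and KLF11 4.88 CPM per kb, and KLF7 with 1.06, KLF9 with 1.04 and KLF4 with 0.476 CPM per kb were lowest. With panobinostat the leading member was KLF2 at every time, at 35.4%, 45.1% and 83.7% of the sum at 2, 5 and 20 h. With romidepsin KLF13 led at 2 h (39.9%) and 5 h (32.7%), and KLF2 at 20 h (72.8%). With ricolinostat KLF13 led throughout, at 35.1%, 37.7% and 42.1%. The summed level reached 480 CPM per kb at 20 h of panobinostat and 396 CPM per kb at 20 h of romidepsin, and it lay below the DMSO sum in the other 7 treated groups.

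**Figure D4:**
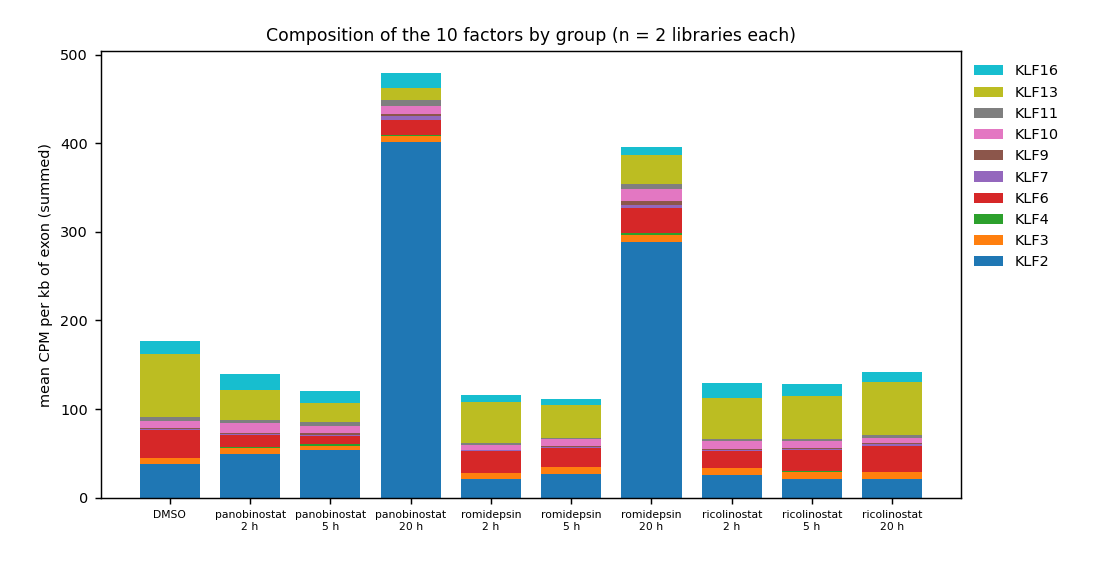
Mean level in CPM per kb of exon of the 10 members, stacked by gene, in DMSO cells and in each inhibitor and time group (n = 2 libraries each). The KLF2 segment is 401 CPM per kb at 20 h of panobinostat, 288 CPM per kb at 20 h of romidepsin and 38.0 CPM per kb in DMSO cells.

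Transcripts named after members gave few counts, and no p-value is given for them because the members were chosen on these libraries. KLF2-DT, which starts beside KLF2 on the other strand, rose at 20 h of panobinostat, to 4.42 and 3.34 CPM against 0.381 and 0.335 CPM in DMSO cells (log2 change 3.42 ± 0.46). It also rose at 20 h of romidepsin, to 2.11 and 2.86 CPM (2.78 ± 0.47). KLF3-AS1 had 0.391 and 0.451 CPM at 20 h of panobinostat, against 1.14 and 0.820 CPM in DMSO cells, a fall of 1.20 ± 0.51 whose call was lost under several alternatives.

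Counts of the other KLF genes and of the lists below stand beside these shares of all genes. Higher and lower shares were 20.8% and 18.1%, 30.7% and 25.9%, and 40.8% and 32.3% at 2, 5 and 20 h of panobinostat. They were 3.55% and 4.62%, 13% and 16.5%, and 38.6% and 29.9% for romidepsin. For ricolinostat they were 16.9% and 14.5%, 18.8% and 15.3%, and 14.7% and 16.4%. The lists were chosen with earlier results known, so nothing is read from these counts and no p-value is given for their genes. Of the 8 other KLF genes, 6 passed the count filter. At 20 h, panobinostat raised 3 and lowered 2 of them and romidepsin raised 4 and lowered 2. Median log2 changes were 1.51 and 1.89, or 1.51 and 1.65 with KLF1, absent in DMSO, set against a floor of 3 counts. All genes had medians of 0.25 and 0.22. KLF1 and KLF14 passed the filter only through groups where they were high, so their rises were built in and lift these medians. KLF5, KLF8, KLF12 and KLF15 changed by 2.41, 0.61, -2.31 and -1.70 with panobinostat. With romidepsin they changed by 2.81, 0.98, -1.03 and -1.95. At 2 and 5 h, panobinostat raised 0 and 1 and lowered 1 and 2, and romidepsin raised 0 at both times and lowered 1 and 0. Ricolinostat raised 0, 0 and 1 and lowered 2, 3 and 0 at 2, 5 and 20 h. The rises at 20 h of romidepsin numbered 2 without DMSO replicate 2, when KLF1 and KLF14 were not called, and 2 without that group's replicate 2, when KLF8 and KLF14 were not. At 20 h of panobinostat KLF14 was not called without DMSO replicate 2 or the treated replicate 2, and the DESeq2 Wald test called KLF1 with neither inhibitor. The falls at 2 and 5 h of ricolinostat each numbered 1 without DMSO replicate 2, and the rises at 20 h of ricolinostat 2 without its replicate 2. KLF5, an activator of epithelial and proliferative genes and a close relative of KLF4, had 22.4 and 20.7 CPM at 20 h of panobinostat and 28.1 and 28.7 CPM at 20 h of romidepsin, against 3.52 and 4.55 CPM in DMSO cells. Its rises were 2.41 ± 0.16 and 2.81 ± 0.16. KLF12, a CtBP-binding repressor, had 18.4 and 20.0 CPM at 20 h of panobinostat and 46.1 and 46.8 CPM at 20 h of romidepsin, against 94.3 and 96.1 CPM in DMSO cells. Its falls were 2.31 ± 0.07 and 1.03 ± 0.06, while at 20 h of ricolinostat it rose by 0.32 ± 0.06.

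KLF15, a glucocorticoid-responsive metabolic factor, had 6.93 and 7.19 CPM at 20 h of panobinostat and 5.87 and 6.08 CPM at 20 h of romidepsin, against 23.8 and 22.3 CPM in DMSO cells. Its falls were 1.70 ± 0.11 and 1.95 ± 0.12, opposite to the rise of KLF9. KLF1, the erythroid factor, had 22 and 33 counts at 20 h of panobinostat and 6 and 9 counts at 20 h of romidepsin, against 0 and 0 in DMSO cells. With a floor of 3 counts over the DMSO group, these levels were 15.7-fold and 4.98-fold higher. The floor takes counts as independent, but 60.3% of all values from 1 to 10 were even. The spread of the treated counts is also left out, so these folds are not firm lower limits. KLF14 had 12 and 26 counts at 20 h of panobinostat and 8 and 22 counts at 20 h of romidepsin, against 2 and 0 counts in DMSO cells. KLF8, another CtBP-binding factor, rose by 0.98 ± 0.33 at 20 h of romidepsin and fell by 0.97 at 5 h of ricolinostat, both calls lost under some alternatives. KLF17 had 0 counts in every library, and KLF18 between 0 and 4.

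The SP factors also bind GC boxes. Of 9 SP genes, 5 were tested, and panobinostat lowered 4, 3 and 3 and raised 0, 2 and 2 of them at 2, 5 and 20 h, with median log2 changes of -0.73, -0.85 and -0.21. Romidepsin lowered 2, 3 and 2 and raised 0, 0 and 2, with medians of -0.07, -0.28 and -0.01. Ricolinostat lowered 4, 3 and 2 and raised none, with medians of -0.37, -0.44 and -0.08. All genes had medians of 0.005, 0.12 and 0.25 with panobinostat. Their medians were 0, 0.02 and 0.22 with romidepsin and 0, 0.02 and 0.03 with ricolinostat, and their shares called are given with the other KLF genes. The rises at 5 h of panobinostat numbered 1 without DMSO replicate 1 or the treated replicate 1. The falls at 2 h of romidepsin numbered 1 without either DMSO library or the treated replicate 2, and those at 20 h of ricolinostat 1 without DMSO replicate 2, when 1 gene was higher, or the treated replicate 2. SP1, the ubiquitous activator, fell by 0.97 ± 0.05 at 2 h of panobinostat and 0.54 at 2 h of ricolinostat. SP2 fell by 1.18 ± 0.10 and 1.04 at the same time, and SP3 fell by 1.20 at 20 h of panobinostat. The falls of SP2 at 20 h of panobinostat and of SP1 at 20 h of romidepsin turned to 0.09 and 0.12 when scaled by library totals alone. SP4 rose by 0.93 at 20 h of romidepsin, and SP6, with 2 and 6 counts in DMSO cells, rose by 3.28 ± 0.65 at 20 h of panobinostat and 3.20 ± 0.66 at 20 h of romidepsin. SP6 passed the filter only through groups where it was high, so its rise was built in.

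Among 10 partner proteins of the family, all tested, panobinostat raised 5, 3 and 5 and lowered 4, 5 and 5 at 2, 5 and 20 h, and romidepsin raised 0, 0 and 3 and lowered 1, 7 and 5. Ricolinostat raised 5, 5 and 1 and lowered 4, 4 and 2. At 20 h the median log2 change of the list was 0.04 for panobinostat, -0.09 for romidepsin and -0.06 for ricolinostat. Over all genes it was 0.25, 0.22 and 0.03, and the shares of all genes called are given with the other KLF genes. Genes named from this list and those below were picked with their changes in view, so no p-value is given for them. CREBBP is an acetyltransferase bound by activator members. It had 86.1 and 90.0 CPM at 20 h of panobinostat and 109 and 114 CPM at 20 h of romidepsin. Its level in DMSO cells was 263 and 253 CPM, and its log2 changes were -1.55 and -1.21. KAT2B, another acetyltransferase, fell by 2.08 ± 0.08 and SAP30, a SIN3 complex subunit, by 1.28 ± 0.06 at 20 h of panobinostat. EP300, the paralog of CREBBP, fell by 1.27 at 5 h of panobinostat. The rises at 5 h of ricolinostat numbered 3 without either treated library, and at 20 h of ricolinostat the falls numbered 1 without DMSO replicate 1 or the treated replicate 1, and the rises 0 without the second of these.

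Among 11 upstream regulators, all tested, panobinostat raised 6, 4 and 5 and lowered 4, 4 and 5 at 2, 5 and 20 h, romidepsin raised 1, 1 and 7 and lowered 6, 4 and 2, and ricolinostat raised 6, 5 and 1 and lowered 4, 5 and 4. At 20 h the median log2 change was 0.02 for panobinostat, 0.47 for romidepsin and -0.01 for ricolinostat. Over all genes it was 0.25, 0.22 and 0.03, and the shares of all genes called are given with the other KLF genes. KDM3A is the demethylase described upstream of KLF2 in myeloma. It had 113 and 109 CPM at 20 h of panobinostat and 148 and 148 CPM at 20 h of romidepsin. In DMSO cells it had 71.1 and 70.4 CPM, and its log2 changes were 0.65 and 1.07. At 2 h KDM3A rose by 0.54 with panobinostat and 0.58 with ricolinostat and fell by 0.49 with romidepsin. MEF2C, a member of the factor family that binds MEF2-type sites, had 135 and 146 CPM at 20 h of panobinostat, against 621 and 637 CPM in DMSO cells, a fall of 2.16 ± 0.04. MAP3K3, a kinase upstream of ERK5, rose by 1.01 ± 0.07 at 2 h of panobinostat and 0.92 at 2 h of ricolinostat, and MAP2K5, the kinase next in that cascade, fell by 0.89 ± 0.13 at 20 h of panobinostat. The rises of the list at 5 h of ricolinostat numbered 3 without DMSO replicate 1, DMSO replicate 2 or the treated replicate 1 and 2 without the treated replicate 2. The 1 rise at 2 h of romidepsin was not called without DMSO replicate 2 or the treated replicate 1, nor that at 5 h without DMSO replicate 1 or the treated replicate 2.

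Of 9 described targets, 7 were tested, and panobinostat raised 2, 2 and 3 and lowered 2, 3 and 3, romidepsin raised 0, 1 and 4 and lowered 3, 3 and 3, and ricolinostat raised 0, 0 and 3 and lowered 4, 2 and 1. CDKN1C and NOXA1 passed the filter only through groups where they were high, so their rises within these counts were built in. At 20 h the median log2 change was 0.26 for panobinostat, 1.42 for romidepsin and 0.66 for ricolinostat. Over all genes it was 0.25, 0.22 and 0.03, and the shares of all genes called are given with the other KLF genes. CDKN1C, a cell cycle inhibitor, had 22.5 and 23.4 CPM at 20 h of panobinostat and 7.60 and 7.01 CPM at 20 h of romidepsin, against 0.169 and 0.149 CPM in DMSO cells (7.13 ± 0.34 and 5.48 ± 0.37). CDKN1A, the p21 gene and a target of KLF4 and KLF6, rose by 2.52 ± 0.05 and 3.36 ± 0.05 at 20 h of panobinostat and romidepsin. It also rose by 0.88 and 1.15 at 2 and 5 h of panobinostat and by 0.66 at 20 h of ricolinostat. CDKN1A fell by 0.71 and 0.15 at 2 and 5 h of romidepsin and by 0.16 at 2 h of ricolinostat. IRF4 and ITGB7, tied to KLF2 in myeloma, fell in 9 and 8 of the 9 contrasts, both where KLF2 was higher and where it was lower. The part of KLF2 in the changes of these 2 genes was not tested. ITGB7 had 98.5 and 102 CPM at 20 h of panobinostat and 338 and 330 CPM at 20 h of romidepsin, against 706 and 704 CPM in DMSO cells. IRF4 had 316 and 320 CPM at 20 h of panobinostat and 668 and 695 CPM at 20 h of romidepsin, against 1767 and 1736 CPM in DMSO cells. At 2 and 5 h ITGB7 fell by 0.40 and 0.68 with panobinostat, 0.17 and 0.18 with romidepsin, and 0.26 and 0.21 with ricolinostat. At 20 h of ricolinostat ITGB7 rose by 0.80 ± 0.04 and IRF4 fell by 0.68. NOXA1 was named after its values were seen. It had 19 and 18 counts at 20 h of panobinostat and 5 and 10 counts at 20 h of romidepsin. DMSO cells had 0 and 0 counts. The level was 10.6-fold and 4.98-fold higher against the same floor of 3 counts, with the limits given for KLF1. Whether the gene with this symbol is the one meant in the description of KLF9 was not checked. The rises of the list at 2 h of panobinostat numbered 1 without DMSO replicate 2 or the treated replicate 1.

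Of 7 glucocorticoid response genes, 6 were tested, and panobinostat raised 3, 4 and 3 and lowered 1, 2 and 3, romidepsin raised 1, 1 and 5 and lowered 2, 2 and 0, and ricolinostat raised 2, 1 and 2 and lowered 4, 3 and 2. At 20 h the median log2 change was 0.08 for panobinostat, 0.45 for romidepsin and 0.02 for ricolinostat. Over all genes it was 0.25, 0.22 and 0.03, and the shares of all genes called are given with the other KLF genes. PER1, a clock gene and glucocorticoid target, rose by 2.87 ± 0.06 at 2 h of panobinostat and 1.82 at 2 h of ricolinostat, and with romidepsin by 2.36 at 20 h. Its change of 0.23 at 5 h of romidepsin lost its call without DMSO replicate 1 (0.14) or either treated library. DUSP1, a MAP kinase phosphatase, had 130 CPM in both libraries at 20 h of panobinostat and 182 and 201 CPM at 20 h of romidepsin, against 10.8 and 12.6 CPM in DMSO cells. It rose by 0.51 and 1.17 at 2 and 5 h of panobinostat. DUSP1 fell by 0.54 and 0.52 at 2 and 5 h of romidepsin and by 0.51 at 2 h of ricolinostat. NR3C1, the glucocorticoid receptor, had 36.2 and 38.2 CPM at 20 h of panobinostat, against 104 and 105 CPM in DMSO cells. At 20 h of romidepsin it had 103 and 105 CPM, a change not called, and at 20 h of ricolinostat it rose by 0.19. SGK1 fell by 0.99 ± 0.08 at 20 h of ricolinostat. With romidepsin, the 1 rise at 2 h was not called when any 1 library was left out, and that at 5 h not without DMSO replicate 1 or either treated library. Its falls numbered 1 at 2 h without DMSO replicate 2 or the treated replicate 1, and 1 at 5 h without the treated replicate 2. With ricolinostat, the rises numbered 1 at 2 h when any 1 library was left out and 1 at 20 h without DMSO replicate 1 or the treated replicate 2, and the falls at 2 h numbered 2 without DMSO replicate 2.

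Among 9 TGF-beta pathway genes, all tested, panobinostat raised 0, 2 and 2 and lowered 5, 6 and 7, romidepsin raised 0, 1 and 6 and lowered 4, 5 and 2, and ricolinostat raised 0, 1 and 1 and lowered 6, 3 and 2. At 20 h the median log2 change was -0.57 for panobinostat, 0.36 for romidepsin and -0.15 for ricolinostat. Over all genes it was 0.25, 0.22 and 0.03, and the shares of all genes called are given with the other KLF genes. TGFBR2, the ligand-binding receptor, had 10.0 and 10.2 CPM at 20 h of panobinostat, against 40.1 and 35.7 CPM in DMSO cells, a fall of 1.90 ± 0.09. SMAD3, a signal transducer, rose by 1.93 ± 0.19 at 5 h of panobinostat and 1.48 ± 0.19 at 20 h of romidepsin. SKIL, a feedback inhibitor of SMAD proteins, rose by 1.34 ± 0.05 at 20 h of romidepsin and 0.77 at 20 h of panobinostat, and TGIF1, a corepressor of SMAD proteins, fell by 0.97 at 20 h of panobinostat and rose by 0.87 at 20 h of romidepsin. The falls of the list at 2 h of romidepsin numbered 2 without either DMSO library and 1 without the treated replicate 1, and those at 5 h 3 without DMSO replicate 1. The rises with panobinostat numbered 1 at 5 h without either DMSO library or the treated replicate 1, and 1 at 20 h without DMSO replicate 2 or either treated library. The 1 rise at 5 h of romidepsin was not called without DMSO replicate 2 or the treated replicate 2. With ricolinostat, the 1 rise at 5 h was not called when any 1 library was left out, the 1 rise at 20 h not without the treated replicate 1, and the falls at 20 h numbered 1 without DMSO replicate 2 or the treated replicate 1.

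The protein-coding genes whose log2 CPM followed each member most closely were found by Pearson correlation over the 20 libraries among 9586 genes of at least 5 CPM, which share libraries and groups, so the coefficients are descriptions. KLF2 was followed by RHOB (0.987) and ATF3 (0.973), KLF4 by FOS (0.969) and ADAMTSL4 (0.967), and KLF7 by CBR4 (0.976) and PNMA1 (0.975). KLF6 was followed by INTS6 (0.966) and IRF2BPL (0.956), KLF9 by PDCD4 (0.963) and STAT2 (0.960), and KLF13 by ZIC2 and CHSY1 (both 0.976). KLF16 was followed by ZNF574 (0.955) and SH2B3 (0.900), KLF11 by EIF4A1 (0.929) and OSTM1 (0.893), KLF10 by TIPARP (0.906) and MYADM (0.899), and KLF3 by C3orf38 (0.868) and DCTN2 (0.854). RHOB, a small GTPase, had 1284 and 1339 CPM at 20 h of panobinostat and 830 and 840 CPM at 20 h of romidepsin, against 123 and 118 CPM in DMSO cells. FOS, an AP-1 subunit, had 242 and 244 CPM at 20 h of panobinostat and 298 and 373 CPM at 20 h of romidepsin, against 12.8 and 14.6 CPM in DMSO cells. ZIC2, a zinc finger factor, had 3.84 and 5.59 CPM at 20 h of panobinostat, against 27.8 and 29.5 CPM in DMSO cells. Between members, KLF4 and KLF2 (0.868), KLF9 and KLF4 (0.838) and KLF7 and KLF2 (0.831) were most alike, and KLF13 ran opposite to KLF4 (-0.754) and KLF2 (-0.733).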

How the data were processed

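Counts per gene were deposited by the authors for 20 libraries of poly(A) RNA, in 10 groups of 2. The libraries were strand-specific and paired-end, per the labels' protocols, and HISAT2, SAMtools, featureCounts and GRCh38 are named per the submitters' processing notes. Nothing is given in the sources used here on tool versions, the counting unit (read or pair) or its strand option. Of 238684 values from 1 to 10, 60.3% were even. Batch is labelled unknown. Ensembl identifiers were matched to symbols for 42179 of 78932 rows, and exon lengths came from GENCODE.

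The counts were fitted with edgeR 4.0.16 (quasi-likelihood, robust, TMM scaling, filterByExpr with a minimum count of 10) in R 4.3.3 with limma 3.58.1. The fit held 20957 genes and 24 contrasts, with Benjamini-Hochberg adjustment within each contrast. The biological coefficient of variation was 0.0419. With 2 libraries per group, p-values and SEs rest on the spread shared over groups. The 2 libraries of panobinostat at 2 h differed most. Their chi-square per degree of freedom over gene counts was 5.92, against 2.33 to 3.99 in the other groups. The code was tested on simulated data. An SE is the log2 fold change divided by the square root of its F statistic. CPM per kb used the union of exons, and likeness used log2 CPM with a prior count of 2.

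The members and lists were chosen with earlier results of these data known. Named genes were the members, the other KLF and SP genes that passed the filter, up to 4 genes with the largest change from each list, the 2 most correlated genes per member, and transcripts named after members. Alternatives were DESeq2-type size factors, library size only, no filter, a filter of 5 CPM, the DESeq2 1.42.0 Wald test, a replicate block, fits of 2 groups, and leaving out each library.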

Additional observations from a re-analysis of the deposited data

Results flagged for a closer look

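These members had called changes against DMSO in opposite directions at 2 times of the same inhibitor, and the later level differed from the earlier in the edgeR fit. The difference is the later log2 change minus the earlier. The members were chosen on these libraries, so the differences are descriptions, and their cause was not tested.

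KLF2 turned from lower to higher with romidepsin, with differences of 3.78 ± 0.05 between 20 and 2 h and 3.42 ± 0.05 between 20 and 5 h. KLF11 did so with romidepsin, by 1.82 ± 0.12 between 20 and 2 h and 1.88 ± 0.12 between 20 and 5 h, and with panobinostat by 0.9 ± 0.10 between 20 and 2 h. KLF9 and KLF10 turned from lower to higher with romidepsin between 2 and 20 h, by 2.77 ± 0.16 and 1.34 ± 0.08. KLF7 turned from lower to higher between 2 and 20 h with panobinostat, by 2.57 ± 0.13, and with ricolinostat, by 1.33 ± 0.14. The fall of KLF9 at 2 h of romidepsin and the rise of KLF11 at 20 h of romidepsin each lost their call when either of 2 libraries was left out.

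KLF10 and KLF16 turned from higher to lower between 2 and 20 h of ricolinostat, by -0.64 ± 0.08 and -0.66 ± 0.08. Their early rises were the small ones whose calls were lost when any 1 library was left out.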

How the results depend on the processing

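Of 630 recomputed changes of members against DMSO under 7 other settings, 612 kept direction and call, 12 lost the call, 4 gained one and 2 reversed. Of 360 with 1 library left out, 328 kept both, 31 lost the call, 1 gained one and 0 reversed. With library size as the only scaling, KLF3 at 20 h of panobinostat became 0.25 and KLF6 at 20 h of romidepsin 0.0644. Other genes that turned positive under it were SP2 (0.0925) and EP300 (0.0749) at 20 h of panobinostat, and SP1 (0.12), SP2 (0.23), EP300 (0.0017) and NR3C1 (0.24) at 20 h of romidepsin. With the filter of 5 CPM, SP1 (0.0302) and NR3C1 (0.15) turned positive at 20 h of romidepsin. The cause was not tested. Of 1975 recomputed changes of the other named genes, 1895 kept direction and call, 44 lost the call, 28 gained one and 8 reversed. Of 1188 with 1 library left out, 1109 kept both, 70 lost the call, 9 gained one and 0 reversed.

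With 1 library left out, the count of members called ran from 5 to 7 for ricolinostat against DMSO at 2 h (9 with all libraries), from 4 to 7 for romidepsin between 2 and 5 h (7), and from 3 to 5 for ricolinostat between 2 and 5 h (5). The 70 calls of members against DMSO became 60 without DMSO replicate 2, the lowest count. No pairing by replicate number was seen: correlations of same-numbered deviations ran from -0.0248 to 0.0347 over 45 pairs of groups. These took in genes of low count, so the measure cannot decide whether samples were handled in pairs. With the replicate number as a block, 70 calls of members against DMSO were made, and no call of a member changed. Member counts per library limit KLF4 most, at 1.69 and 1.79 CPM in DMSO cells.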
